A study of Drosophila melanogaster with 6 samples.

Results

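The neprilysins and the cell-surface metalloproteases were examined in PPL1-γ1pedc dopamine neurons with and without Stromalin knockdown. Genes were chosen by symbol: the neprilysins Nep1, Nep2, Nep3, Nep4, Nep5 and CG13650 (Nepl16 in the reference name table), the ADAM proteases Tace and kuz, and the matrix metalloproteases Mmp1 and Mmp2. These were 10 of the 17737 genes in the count table. Of the 10, 7 had at least 1 count in some library, and 6 passed the filter, which asked for 10 counts or more in 2 libraries or more, as did 4093 genes in all. The filter can be passed by counts in 1 group alone, as for Nep1 and Tace below.

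Neprilysins are zinc-dependent endopeptidases, most of them anchored in the plasma membrane with the catalytic part outside the cell, where they cut small signaling peptides and end their action. In mammals, neprilysin also degrades amyloid-β. ADAM proteases cut membrane proteins close to the cell surface and release their outer parts, a step called shedding. Matrix metalloproteases cleave extracellular matrix and surface proteins, and in flies they act in tissue remodeling and in the pruning of larval dendrites.

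Stromalin (SA) is a subunit of the cohesin complex, which holds chromosomes together and shapes gene expression. Control larvae carried UAS-mCD8:GFP, a membrane fluorophore, and UAS-dicer2, which enhances RNAi, under the ∆TH-D'-GAL4 driver. Stromalin KD larvae carried the same driver, fluorophore and dicer2 transgenes. In addition, the paper gives UAS-Stromalin RNAi for these larvae and a control transgene for the controls. Each library was made from 25 GFP-positive neurons, picked by hand from a pool of larval brains at 120 h after egg laying, so that a library is a pool over animals. There were 3 control and 3 Stromalin KD libraries. Each was collected on its own day, with the genotypes alternating, so collection day and library cannot be told apart. The driver labels PPL1-γ1pedc neurons in the 3rd instar central brain, and the data therefore cover 1 small neuron class in larvae. With pooled neurons, fewer cells that express a gene and less RNA per cell cannot be told apart.

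Counts in genes totaled 7790921 to 9625056 per control library and 8638734 to 9624935 per Stromalin KD library. A limit of 3 counts for a gene at 0 corresponds to 0.312 to 0.385 CPM, that is, counts scaled to library size. Detection was uneven, with 2298 to 4004 genes at 10 counts or more per library. Among genes that reached 1000 counts in each of the other 5 libraries, the share at 50 counts or fewer was 4.40% in Control 1, 6.10% in Control 3 and 6.56% in Stromalin KD 3. It was 0% to 0.651% in the remaining libraries. Low counts in 1 library thus also occurred for genes with many reads in all the others, and intervals and limits below cover counting error only. All 10 dopaminergic and pan-neuronal markers, including ple, Vmat, DAT, elav and nSyb, had at least 10 counts in every library. Of 9 glial genes, repo and alrm were at 0 throughout and 5 had any count, led by nrv2 with 3, 3824 and 0 counts in control against 1187, 728 and 0 with Stromalin KD. The others were Gs2 (430 counts in Stromalin KD 1), Eaat1 (328 in Stromalin KD 2), loco (63 in Stromalin KD 1 and 8 in Control 1) and moody (62 in Control 3). Of 6 neuroblast genes only grh was counted, at 244 counts in Control 2, 681 in Stromalin KD 2 and 800 in Stromalin KD 3. Of 9 genes of other transmitter types 5 had any count. ChAT and Gad1 were at 0, whereas VGAT had 112, 0 and 0 counts in control against 1762, 500 and 1737 with Stromalin KD. SerT had 786 counts in Stromalin KD 1 and Tbh 617 in Control 3. In Stromalin KD 3, VAChT had 486 counts and VGlut 7. The part of these cells in the results below was not tested. Markers of fat body, blood cells, trachea and muscle were 17 genes. They reached 10 counts for 2, 10 and 0 genes in the control libraries and 0, 2 and 4 in the Stromalin KD libraries. The blood cell genes Hml and NimC1 were at 0, but srp had 2 counts in Stromalin KD 1 and 319 in Stromalin KD 3. The highest by mean TPM was Mlc2, with 3535, 21 and 0 counts in control against 0, 0 and 3146 with Stromalin KD. Lsp1beta followed, with 0, 2155 and 0 counts in control against 1, 0 and 5686 with Stromalin KD. Next were Lsp1gamma (5593 counts in Control 2) and Lsp2 (954 in Control 2). SA itself was counted in Control 3 (1372 counts) and Stromalin KD 1 (3 counts) and was at 0 in the other 4 libraries. With 2 of 3 control libraries at 0, SA does not check the labels here.

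The family was detected unevenly. Nep3 was counted in all 6 libraries, kuz in 5, Mmp2 in 4, Nep1, Tace and CG13650 in 3 each, and Nep5 in 1. Nep2, Nep4 and Mmp1 had 0 counts in every library, which allows up to 0.385 CPM each. Members at 10 counts or more numbered 4, 6 and 3 in control, against 3, 5 and 3 with Stromalin KD. The means were 4.33 ± 1.53 and 3.67 ± 1.15 (SD, n = 3 each), a difference that did not pass an exact two-sided permutation test (p = 0.7). With 3 libraries against 3, an exact test of this kind cannot go below p = 0.1. The difference of means was -0.667 genes, and it turned to 0.167 when Control 2, the library with the most members, was left out.

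**Figure D1:**
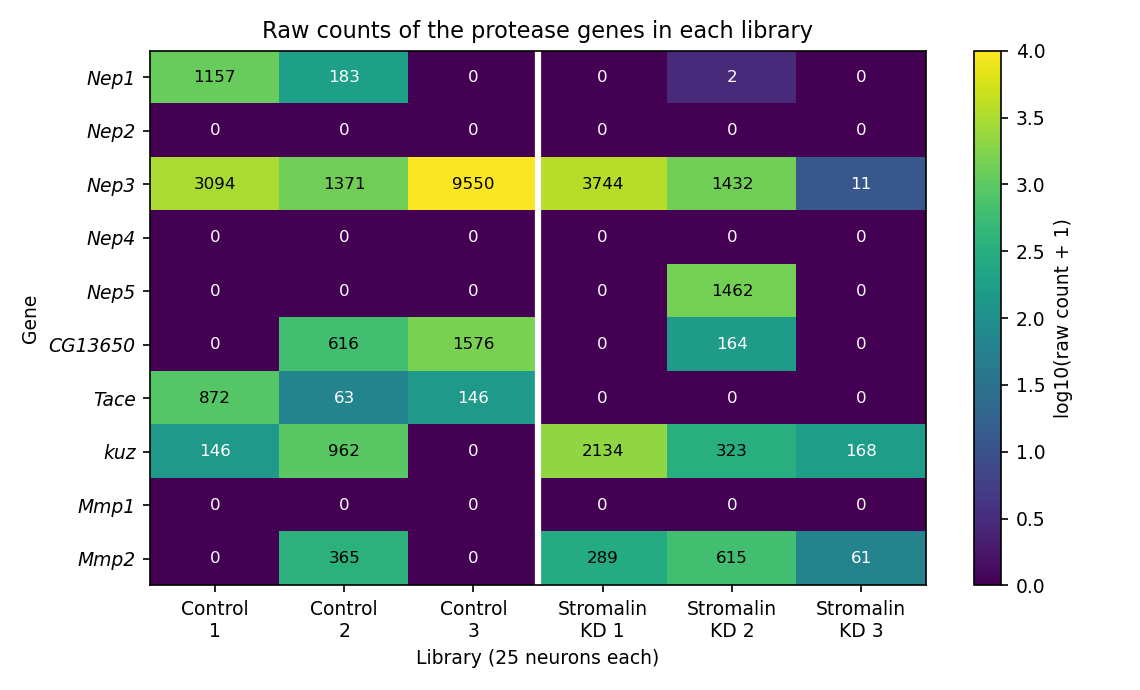
Raw counts of the 10 genes (rows) in the 3 control and 3 Stromalin KD libraries (columns), with color on a log10(count + 1) scale. Nep3 is filled in all 6 libraries, Tace in the 3 control libraries alone, and Nep2, Nep4 and Mmp1 are at 0 throughout.

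Levels between genes were compared per length, in TPM, a transcript abundance scaled to gene length and library size. Nep3 had the highest mean level, 219 ± 245 TPM (SD, n = 6), above 91.6% of the genes with any count. CG13650 followed with 49.6 ± 81.3 TPM, kuz with 27.2 ± 34.5, Tace with 23.9 ± 45.2 and Nep5 with 19.7 ± 48.3. Nep1, at 15.1 ± 31.3 TPM, and Mmp2, at 13.8 ± 15.4 TPM, were the lowest of the genes with counts. Their mean levels were above 40.5% and 39.1% of the counted genes. No 2 neighbors in this order differed by more than the larger of their SDs. Nep3 was above CG13650 in 6 of 6 libraries, whereas Nep1 was above Mmp2 in 1 of 6. Ordering by the median in place of the mean moved 5 places, with kuz (11.5 TPM) and Mmp2 (10.8 TPM) then next after Nep3 (150 TPM).

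**Figure D2:**
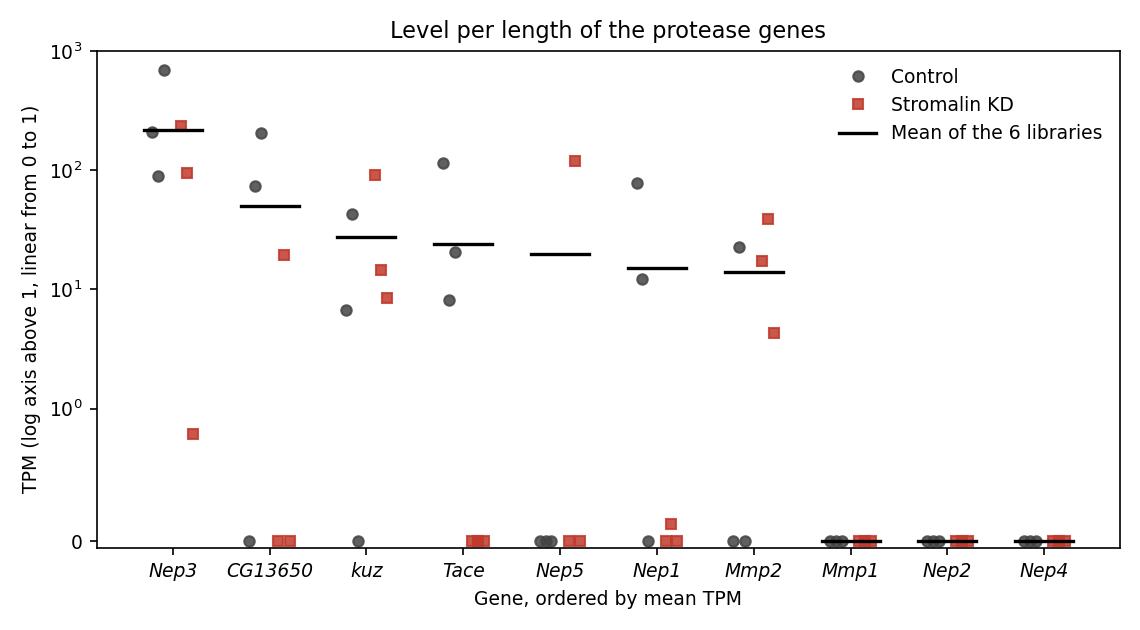
TPM of each gene in each library, on an axis that is logarithmic above 1 and linear from 0 to 1, with genes ordered by their mean (black line). Circles are control and squares Stromalin KD libraries. Within a gene, libraries at 0 stand beside libraries above 10 TPM for every gene with counts except Nep3, which ranged from 0.807 to 687 TPM.

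Nep1, on chromosome X from 6091205 to 6103971 on the plus strand (build BDGP6), encodes a neprilysin of up to 849 residues. The 3 control libraries held 1157, 183 and 0 raw counts, and the Stromalin KD libraries 0, 2 and 0. In TPM these were 78.1, 12.1 and 0 in control, against 0, 0.133 and 0 in Stromalin KD. Control 1 and Control 2 were thus high, whereas Control 3 was at 0 like 2 of the Stromalin KD libraries, so the groups overlapped. Normalized CPM averaged 60.7 ± 90.1 for control, against 0.0653 ± 0.113 for Stromalin KD (SD, n = 3 each; exact two-sided permutation p = 0.4). Pooled over libraries, the control level was 732-fold higher, with a 95% counting interval of 202 to 6050, and that interval holds no spread between libraries.

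The edgeR quasi-likelihood fit gave Nep1 a log2 fold change, Stromalin KD over control, of -9.55 with a standard error of 6.08. The Benjamini-Hochberg adjusted p in edgeR was 1.00. In DESeq2 the log2 fold change was -9.97 with a standard error of 3.32 and an adjusted p of 0.0493, just under the 0.05 threshold. Without Control 1, which holds most of the Nep1 reads, DESeq2 gave -6.95 and an adjusted p of 0.225. With each other library left out in turn, the adjusted p in DESeq2 was 0.00848 to 0.0496. The runs with 1 library left out called 700 to 816 genes in all, against 160 with 6 libraries. The study took Nep1 into its screens because of these libraries, so its call here is not independent evidence of a decrease. The paper then singled it out through RNAi screens for memory and a synaptic vesicle marker. It also reports lower Nep1 mRNA, by nCounter and RT-qPCR, in adult brains with pan-neuronal Stromalin or SMC1 knockdown. Those separate samples differ in stage and tissue from the larval neurons here.

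The pattern of Nep1, at least 10 counts in 2 or 3 libraries of one group and under 10 in all 3 of the other, was shared by many genes. It was present in 182 of the 4093 genes (4.45%) with the control side higher, and in 251 (6.13%) with the Stromalin KD side higher. The 5 genes with counts most like those of Nep1, by Pearson r of log2(normalized CPM + 1) over the 6 libraries, were Octbeta1R (r = 0.999), Ptx1 (0.999), Taldo (0.999), ttm2 (0.998) and CG4080 (0.997). Octbeta1R encodes an octopamine receptor and Taldo the enzyme transaldolase. All 5 had their highest count in Control 1, the next in Control 2 and at most 1 count in any other library. The points share these libraries and their detection, and 84 of 4092 genes had an r over 0.9.

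The exons of Nep1 share 267 bases with Mipp2, an inositol phosphate phosphatase gene on the opposite strand. Mipp2 had 1156 counts in Control 2 and 0 in the other 5 libraries. No source used here says whether the counting used strand, so that reads from the shared stretch could belong to either gene. Nep1 in Control 1 had its 1157 counts with Mipp2 at 0.

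Nep3, on chromosome X from 19961297 to 19969323, was the only neprilysin counted in every library. Raw counts were 3094, 1371 and 9550 in the control libraries, against 3744, 1432 and 11 in the Stromalin KD libraries. In TPM the control libraries had 206, 89.5 and 687, and the Stromalin KD libraries 233, 94.2 and 0.807. Library 3 of each group held the extreme, the highest in control and the lowest in Stromalin KD, and the other 4 libraries overlapped. Normalized CPM averaged 613 ± 586 and 192 ± 220 (SD, n = 3 each; exact permutation p = 0.3). The edgeR log2 fold change was -1.68 with a standard error of 1.44 (adjusted p in edgeR 1.00). Stromalin KD 3 is also the library with the largest share of widely counted genes at 50 counts or fewer. Without it the edgeR log2 fold change was -1.10, and over the 6 libraries left out in turn it ran from -3.05 (without Stromalin KD 1) to -0.58 (without Control 3).

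Of the TPM summed over the 6 neprilysins, Nep3 made up 72.5%, 51.3% and 77.0% in the control libraries. In the Stromalin KD libraries the shares were 100%, 40.6% and 100%. The sum itself was only 0.807 TPM in Stromalin KD 3, from 11 raw counts of Nep3, against 174 to 892 TPM in the other libraries. Of these 6 genes, Nep3 was thus the only one counted in Stromalin KD 1 and Stromalin KD 3, and it held the smallest share in Stromalin KD 2, where Nep5 was counted.

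CG13650 lies on chromosome arm 3R from 25109226 to 25112516 on the minus strand and has 1 annotated transcript. Raw counts of 0, 616 and 1576 were found in control, against 0, 164 and 0 with Stromalin KD. In TPM the control libraries had 0, 72.8 and 205, and Stromalin KD 2 had 19.5. The libraries with counts were not those of Nep1, since Control 1, the highest for Nep1, had none and Control 3, at 0 for Nep1, had the most. Normalized CPM averaged 89.7 ± 108 and 5.35 ± 9.27 (SD, n = 3 each; exact permutation p = 0.4). The edgeR log2 fold change was -4.06 with a standard error of 4.45, and DESeq2 gave -4.19 with an adjusted p of 0.986. Without Stromalin KD 2, the library that holds all the knockdown reads, the knockdown libraries left in were at 0. DESeq2 then gave -11.97 and an adjusted p of 0.0174, in a run that called 700 genes against 160 with all 6 libraries. In edgeR the same subset gave -12.47 with a standard error of 7.43 and an adjusted p of 0.999.

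Nep5, on 3R from 27057908 to 27064199, had 1462 raw counts in Stromalin KD 2 (118 TPM) and 0 in the other 5 libraries. Against a limit of 3 counts over the whole control group, the Stromalin KD level was at least 446-fold higher, but it came from 1 library. Nep5 did not enter the edgeR test, and an exact permutation test of its normalized CPM gave p = 1.0. DESeq2 gave it no p at the default settings. With Cook's filtering and independent filtering off, Nep5 had an adjusted p of 2.77e-08 from this single library, in a run that called 1460 genes.

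The neprilysins at 0 were Nep2, a secreted form in flies, and Nep4, known from larval muscle and nervous system. Nep2 lies on 3R from 4719458 to 4731878 and Nep4 on 3R from 20652567 to 20659904, both on the minus strand. A change in either was not detectable at this depth.

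Tace, the fly counterpart of the mammalian enzyme that sheds tumor necrosis factor, lies on 3R from 30000530 to 30003678 on the plus strand and has 9 merged exons. The control libraries held 872, 63 and 146 raw counts, and all 3 Stromalin KD libraries held 0. In TPM the control libraries had 115, 8.11 and 20.7. Tace was the 1 member of the 6 tested whose groups did not overlap, against 6.62% of all tested genes (2.79% lower and 3.84% higher in Stromalin KD). Normalized CPM averaged 49.8 ± 64.5 in control, against 0 with Stromalin KD, and the exact permutation test gave p = 0.1, the smallest it can give. The pooled level was at least 394-fold lower in Stromalin KD, taking 3 counts over the group as the limit.

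The edgeR log2 fold change of Tace was -11.75 with a standard error of 6.22. The unadjusted p in edgeR was 0.0589 and the adjusted p 0.809. DESeq2 gave -11.36 with a standard error of 3.08 and an adjusted p of 0.0187, and the adjusted p was at most 0.0476 with 1 library left out, in runs that called 700 to 816 genes in all against 160 with 6 libraries. A pattern of at least 10 counts in all 3 libraries of one group and 0 in all 3 of the other was found in 7 genes (0.171%) with control higher and in 16 (0.391%) with Stromalin KD higher. Of the 3 control libraries, Control 1 held most of the Tace reads, as it did for Nep1.

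The other ADAM protease, kuz, cleaves Notch and its ligand Delta at the cell surface and spans 13550139 to 13639411 on 2L. It had 146, 962 and 0 raw counts across control libraries, against 2134, 323 and 168 across Stromalin KD libraries. In TPM these were 6.66, 42.9 and 0 against 90.8, 14.5 and 8.42. Stromalin KD 1 was the highest and Control 3 the lowest, with the other 4 libraries interleaved. Normalized CPM averaged 38.3 ± 49.4 and 99.6 ± 128 (SD, n = 3 each; exact permutation p = 0.6). The edgeR log2 fold change was 1.38 with a standard error of 3.58, and it turned to -0.52 without Stromalin KD 1. Thus kuz and Tace had opposite fitted signs, but the difference between them was not tested.

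Mmp2 and Mmp1, both on 2R, are the only matrix metalloproteases of the fly. Mmp2 had 0, 365 and 0 raw counts in control, against 289, 615 and 61 with Stromalin KD, or 0, 22.8 and 0 TPM against 17.2, 38.7 and 4.29 TPM. It was counted in all 3 Stromalin KD libraries and in Control 2 alone among controls, where its level was above those of Stromalin KD 1 and Stromalin KD 3. Normalized CPM averaged 11.9 ± 20.6 and 33.7 ± 26.4 (SD, n = 3 each; exact permutation p = 0.3). The edgeR log2 fold change was 1.50 with a standard error of 4.42. Without Control 2 it was 11.14 in edgeR, not past the adjusted threshold, and 10.22 in DESeq2 with an adjusted p of 0.0152. The control libraries left in were at 0. That DESeq2 run called 816 genes, and the median log2 fold change of all genes was also shifted, to 1.39. Control 2 is the control library with the most fat body, blood cell, trachea and muscle markers, 10 of 17 at 10 counts or more, and their part in its Mmp2 reads was not tested. Exons of Mmp1 share 284 bases with Pof on the opposite strand, which had 35, 25 and 950 counts in Stromalin KD, yet Mmp1 was at 0.

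Across the 6 tested members, edgeR called 0 at an adjusted p under 0.05, against 2 of 4093 genes (0.0489%). At an unadjusted p under 0.05 it called 0 of the 6, against 132 genes (3.23%), with 1.59% lower and 1.64% higher in Stromalin KD. DESeq2 called 2 of the 6, Nep1 and Tace, both lower in Stromalin KD, against 160 of 2930 genes with an adjusted p (5.46%), of which 68 (2.32%) were lower and 92 (3.14%) higher. With limma on log2(TPM + 1) 0 members passed, and 4 genes passed in all. The fitted log2 fold change was below 0 for 4 members (Nep1, Nep3, CG13650 and Tace) and above 0 for kuz and Mmp2, and 48.8% of all tested genes were below 0. The median over the 6 was -2.87, beside 0.07 over all tested genes, and a typical size, the median without sign, was 2.87 beside 1.59. That median lies between Nep3 (-1.68, standard error 1.44) and CG13650 (-4.06, standard error 4.45). Nep1 and Tace, the most negative, passed the filter on control counts alone. A shift of the 6 as a set was not tested. The groups did not overlap for 1 of 6, as above.

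**Figure D3:**
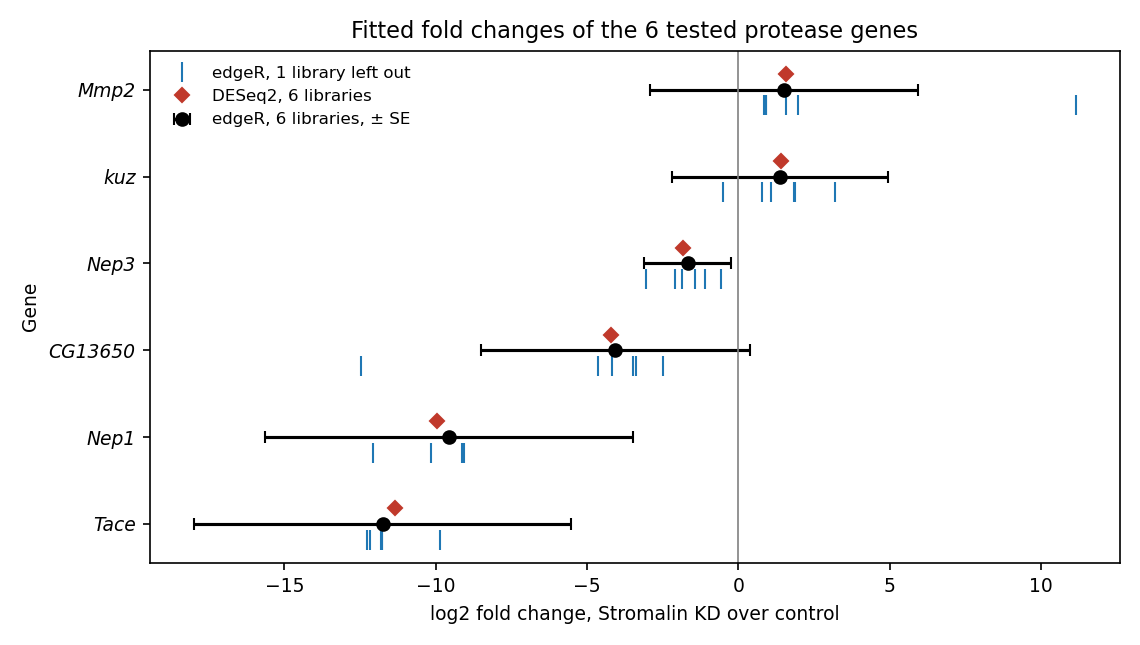
Fitted log2 fold changes, Stromalin KD over control, of the 6 tested genes. Black points are edgeR with all 6 libraries and bars of 1 standard error, red diamonds DESeq2, and blue ticks edgeR with 1 library left out. Tace, Nep1, CG13650 and Nep3 lie below 0 and kuz and Mmp2 above, with the kuz ticks on both sides of 0 and 1 Mmp2 tick at 11.14.

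Other genes of the same pathways were taken from lists by name. Of 21 further neprilysin relatives in the count table, 5 had any count and 0 passed the filter. The highest were CG4723 with 950 raw counts in Control 2 and goe with 663 in Stromalin KD 1, each at 0 in the other 5 libraries. By mean TPM, CG14527 (7 counts in Control 2) and CG5527 (5 in Stromalin KD 1) came next. Nep3 was therefore the one neprilysin, of these and the 6 above, counted in every library.

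Of 16 ADAM relatives and protease regulators, 7 were tested and 0 passed at an adjusted or an unadjusted p under 0.05 in edgeR, with a median log2 fold change of 0.55. DESeq2 called 0 of them, but among the 7 it gave no adjusted p to mmd, rho and Tsp3A, which could not be called. Of all 4093 genes tested, 2095 were fitted above 0. The 7 were all fitted above 0, each by less than its standard error. They were Meltrin and mmd (ADAM proteases), Fur1 and Fur2 (furins, which activate proteases by removing a prodomain), rho and rho-5 (rhomboid family) and the tetraspanin Tsp3A. The ADAM mmd was counted in all 6 libraries, with 313, 11575 and 222 raw counts in control against 4317, 4495 and 5030 with Stromalin KD, and its mean level was 179 ± 170 TPM. Control 2 was the highest and Control 1 and Control 3 the lowest, so the groups overlapped. Fur1 had a mean level of 110 ± 105 TPM, rho-5 90.0 ± 139 TPM and Fur2 85.8 ± 44.1 TPM. Timp, the inhibitor of matrix metalloproteases, had 2 counts in Stromalin KD 1 and 0 elsewhere.

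**Figure D4:**
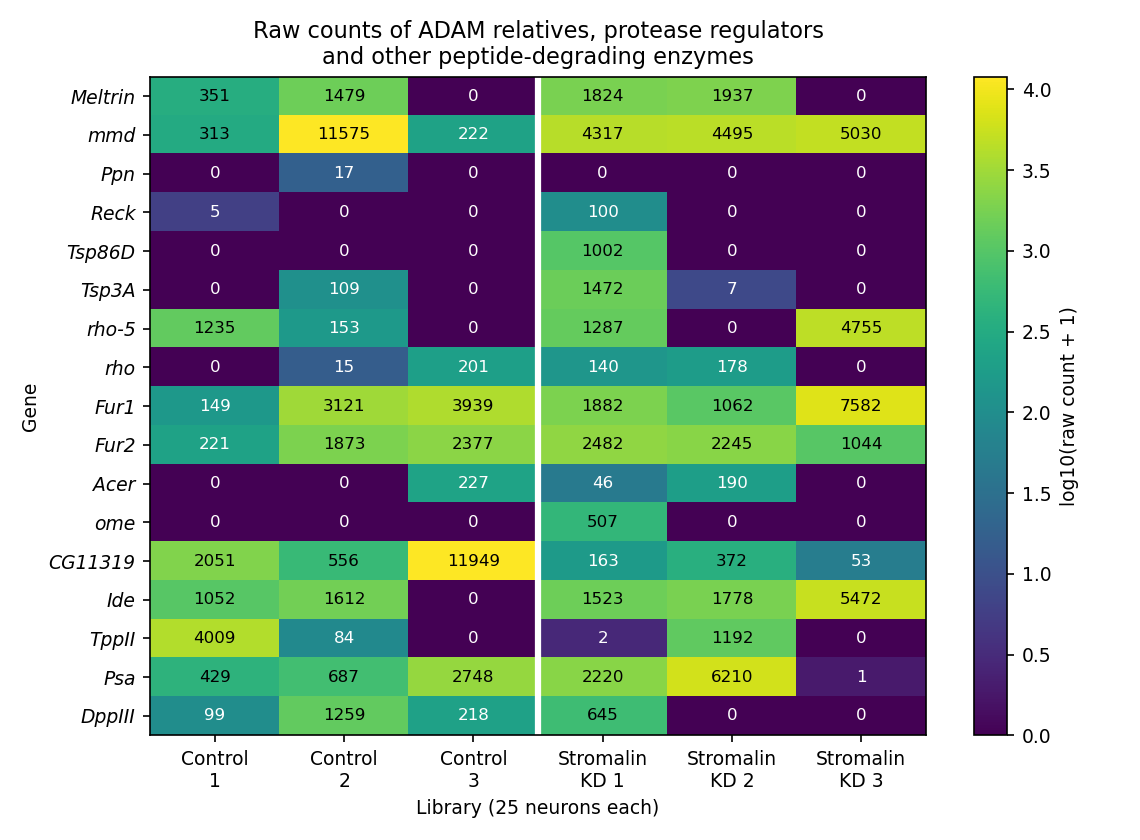
Raw counts of ADAM relatives and protease regulators with any count apart from Timp, followed by other peptide-degrading enzymes (rows), in the 6 libraries (columns), with color on a log10(count + 1) scale. CG11319 is higher in each control library than in any Stromalin KD library, whereas mmd is filled in all 6.

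Shed proteins and their partners were better covered, with 18 of 24 genes counted and 14 tested. Appl, the fly amyloid precursor protein homolog, had the highest level of them at 1391 ± 471 TPM (SD, n = 6) and an edgeR log2 fold change of -0.33 with a standard error of 0.49. The adhesion molecules Fas2 (540 ± 171 TPM), Nrg (262 ± 55.6 TPM) and Nlg2 (184 ± 173 TPM) followed. Notch (N), a kuz substrate, had 4 counts in Control 2 and 1 in Stromalin KD 2. The median log2 fold change of the 14 was -0.42, and 9 were fitted below 0.

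In that list spi passed in DESeq2 (adjusted p 0.00698). It encodes an EGF receptor ligand that is released by rhomboid cleavage. Control libraries held 1, 0 and 0 raw counts of spi, and Stromalin KD libraries 519, 2659 and 544. The groups did not overlap, as for 3.84% of all tested genes with Stromalin KD higher, and all 3 Stromalin KD libraries were high. The edgeR log2 fold change was 11.06 with a standard error of 5.46, an unadjusted p of 0.0428 and an adjusted p of 0.809, so spi passed only before adjustment there.

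Of 15 other peptide-degrading enzymes, 6 were tested and had a median log2 fold change of -0.74. CG11319, Dpp10 in the reference name table and related to a mammalian potassium channel subunit that lacks peptidase activity, was the 1 gene of them at an unadjusted p under 0.05. It had 2051, 556 and 11949 raw counts in control, against 163, 372 and 53 with Stromalin KD. Each control library was above each Stromalin KD library, as for 2.79% of all tested genes. Its edgeR log2 fold change was -4.97 with a standard error of 1.85 and an unadjusted p of 0.0074, and the adjusted p was 0.809 in edgeR and 0.214 in DESeq2. The insulin-degrading enzyme Ide (185 ± 196 TPM), the aminopeptidase Psa (157 ± 175 TPM), DppIII and TppII did not pass in edgeR.

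Peptide genes listed as possible sources of neprilysin substrates were mostly at 0 in these libraries. Whether neprilysins act on each product was not tested, and peptides released by other cells are not covered here. Of 18 such genes 3 had any count and 1 was tested. The tested gene was Proc, which encodes proctolin, with 1988, 0 and 0 raw counts in control against 53, 0 and 0 with Stromalin KD. Each group thus had Proc in library 1 alone. CCAP had 839 counts in Control 2 and Capa 1 count in all. In the order above, the 5 lists had 0, 7, 14, 6 and 1 genes tested in edgeR. Over the 5 lists together, edgeR called 0 genes at an adjusted p under 0.05. It called 2 at an unadjusted p under 0.05 (spi and CG11319), and DESeq2 called 1. Over all genes the shares were 0.0489% and 3.23% in edgeR and 5.46% in DESeq2.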

How the data were processed

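The authors sequenced 3 control and 3 Stromalin KD libraries and deposited a whole-number table of raw counts for each gene. HTSeq 0.9.1, BDGP6 and DESeq2 are listed in the submitters' processing notes. For the aligner and the strand setting, no name is given in the sources used here. The authors also deposited counts divided by DESeq2 size factors, a normalized signal, and TPM per library. A further deposited table holds their own fold changes and p-values and was not used.

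Raw counts were tested with edgeR 4.0.16 in R 4.3.3 on the 4093 genes that reached 10 counts in 2 libraries or more, with TMM factors, the two-sided quasi-likelihood test and Benjamini-Hochberg adjustment at 0.05. Standard errors came from the fold change and the F statistic. CPM values were scaled by the TMM library sizes. Alternatives were DESeq2 1.42.0, limma 3.58.1 on log2(TPM + 1) and log2(TPM + 0.1), RLE factors, total counts, other count filters, a replicate block and each library left out. Leaving out libraries in DESeq2 was added after seeing the data. The edgeR step was tested on simulated counts with a much smaller spread between libraries than these data have. That test therefore does not tell how edgeR performs at the spread found here. The spread between libraries was large, with a common coefficient of variation of 228%.

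The genes and lists were chosen with earlier results of these data known. All 10 genes are named. From each list, genes at an unadjusted p under 0.05 in edgeR or an adjusted p under 0.05 in DESeq2 are named. So are the 4 highest by mean TPM, or fewer where fewer genes had counts. Other genes named were chosen after their values were seen. In gene positions and overlaps, 17599 of 17737 gene IDs matched the Ensembl annotation of BDGP6. No sequences are shown. Nothing says that libraries of a group share animals. The p-values measure the spread between these pools of neurons.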

Additional observations from a re-analysis of the deposited data

How the results depend on the processing

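The count of called members rested on the tool. It was 0 in edgeR under RLE factors, total counts, other filters, a replicate block and each library left out, and in limma with both pseudocounts. In DESeq2 it was 2 (Nep1 and Tace), 3 without Cook's and independent filtering (Nep5 added), and 1 to 3 with each library left out. The 1 was Tace without Control 1, and Mmp2, CG13650 or Nep5 joined without Control 2, Stromalin KD 2, and Stromalin KD 1 or 3, respectively. Calls over all genes then ran from 700 to 816, beside 160 with all 6 libraries. Listed genes called went from 0 in edgeR to 1 in DESeq2 and 9 without its filtering, while calls over all genes went from 2 to 160 and 1460. In edgeR, leaving out each library gave log2 fold changes of -12.07 to -9.07 for Nep1, -12.28 to -9.84 for Tace, -12.47 to -2.48 for CG13650, -3.05 to -0.58 for Nep3 and 0.85 to 11.14 for Mmp2. Nep1 was not tested without Control 1 or Control 2, or with a filter of 3 libraries, since it then failed the count filter. For kuz the range was -0.52 to 3.19, and its sign reversed without Stromalin KD 1 in edgeR (-0.52) and DESeq2 (-0.47). The unadjusted edgeR p of Tace went under 0.05 without Control 2 (0.0497) and with a filter of 3 libraries (0.0392). The difference in members detected was -1.33 to 0.167 genes with each library left out, the last without Control 2. Ordering by median TPM moved 5 places. The causes were not tested. Same-numbered libraries did not deviate together (r of -0.02, -0.01 and 0.02), but different-numbered ones gave like values (-0.03 to 0.04). With all r near 0, they cannot show whether the numbers pair samples. By design, each library was collected on its own day. With the replicate block the log2 fold changes were -7.07 for Nep1, -10.79 for Tace, 3.59 for kuz and 7.71 for Mmp2, and 0 members were called. At these depths a gene at 0 may hold up to 0.385 CPM.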
